A study of Homo sapiens with 4 samples.

Results

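The genes described here act in the synthesis, remodelling, activation, binding, oxidation and storage of fatty acids. There were 50 of them, chosen by name and role with earlier results of these data known. They are set beside the 22148 annotated genes that the deposited Gene Ontology (GO) tables count as their background. The 50 fell into 6 classes: 5 genes of synthesis, 12 of desaturation and elongation, 8 of activation, 6 of binding and uptake, 15 of oxidation and 4 of lipid storage. The identifiers of all 50 were found in the gene name table.

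Fatty acids are built in the cytosol from acetyl groups, and then lengthened and desaturated by enzymes of the endoplasmic reticulum. Before a fatty acid can be burned, stored or built into a membrane it is joined to coenzyme A, after which mitochondria and peroxisomes shorten it by beta-oxidation, while lipid droplets, coated by perilipins, hold the surplus as triglyceride. Hepatocytes run all of these routes, and liver cancer cell lines keep many of them.

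RNA came from HepG2 and Huh7, both established human liver cancer cell lines that the labels call hepatocellular carcinoma. Group A was HepG2 before treatment and group B was HepG2 after it, while groups C and D were Huh7 before and after it. The treatment was sonodynamic therapy (SDT), in which ultrasound activates a sensitizer; targeted nanobubbles carried hematoporphyrin monomethyl ether (HMME), the sensitizer, and lonidamine (LND), an antitumour agent that acts on energy metabolism. Each of the 4 groups was 1 library of total RNA depleted of ribosomal RNA. No value thus has a replicate error, and no test between groups could be made here. Dose and time of the RNA samples are not given in the labels, and groups A and C are named only as cells of each line before treatment, so what carrier or ultrasound they received is not given in the sources used here.

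A gene is called listed here when its Ensembl identifier stands under any GO term of the comparison B vs. A (HepG2) or D vs. C (Huh7). Listing is the authors' call of differential expression at an adjusted p-value under 0.05. With 1 library per group, that p-value holds no variation between replicates. The tables hold no expression level and no direction, so a listed gene may have been higher or lower after SDT. For a gene that was not listed, no change, no detection and no test cannot be told apart. Read depth could not be given, since numbers of reads are not in these tables. The 2 comparisons share no library.

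Of the 50 fatty acid genes, 10 (20%) were listed in HepG2, where 21.6% of all background genes were listed (4783 of 22148). In Huh7 18 of the 50 (36%) were listed, where the share of all genes was 19.7% (4369 of 22148). Thus the share in HepG2 lay near the background, and that in Huh7 above it. Both cell lines listed 8 of the 50 (16%, against 10.3% of all genes), HepG2 alone listed 2 (4%, against 11.3%), Huh7 alone listed 10 (20%, against 9.43%) and neither listed 30. The 8 shared genes were 80% of the HepG2 members and 44.4% of the Huh7 members. Over all listed genes the 2281 shared genes were 47.7% of the HepG2 list and 52.2% of the Huh7 list. Among the 50, the genes listed in HepG2 were thus largely a subset of those listed in Huh7. This did not hold for 102 other fatty acid genes, described below, where 9 shared genes were 33.3% of the HepG2 list.

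**Figure D1:**
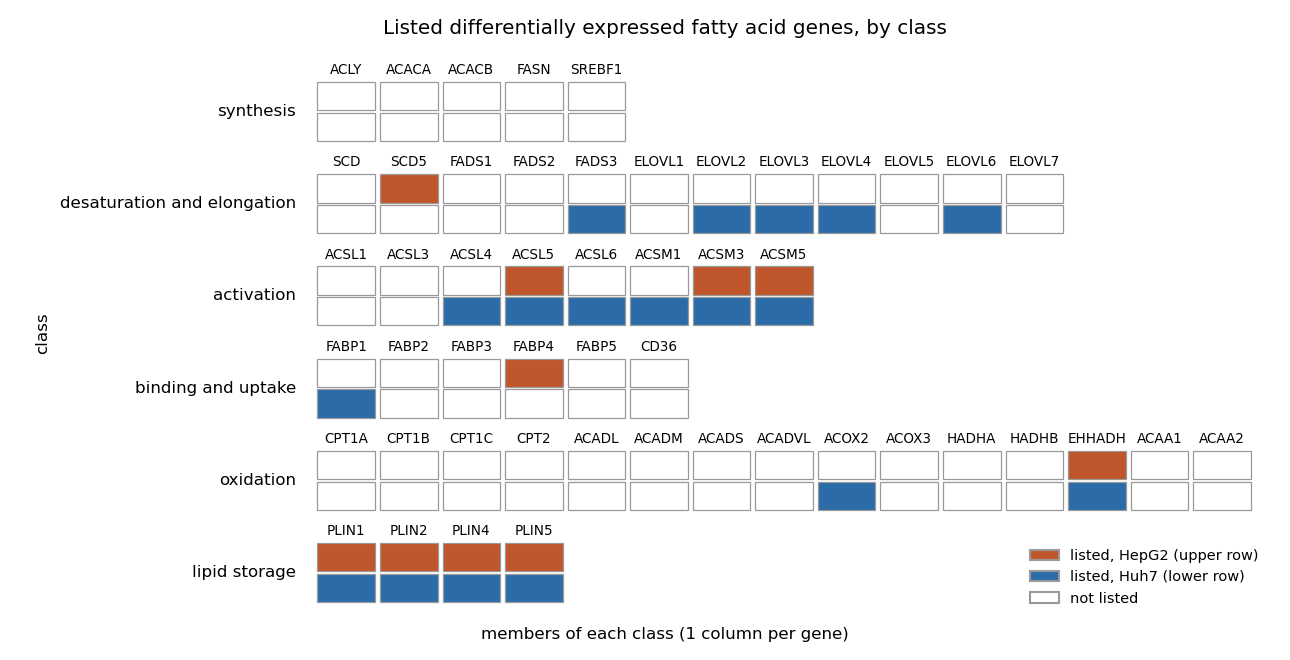
Each column is 1 of the 50 fatty acid genes, grouped by class down the vertical axis, and a filled box marks a gene listed in HepG2 (upper box) or Huh7 (lower box). The lipid storage class is filled in both cell lines (4 of 4), the synthesis class is empty in both (0 of 5), and 5 desaturation and elongation genes are filled in Huh7 against 1 in HepG2.

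The 5 synthesis genes were listed in neither cell line. ACLY makes cytosolic acetyl-CoA from citrate, ACACA and ACACB carboxylate it to malonyl-CoA, FASN assembles palmitate, and SREBF1 encodes the transcription factor that drives this program. The empty class therefore covers each step from citrate to palmitate. Among 10 other genes of synthesis and its control, 3 (30%) were listed in HepG2 and 0 in Huh7, against 21.6% and 19.7% of all genes. These were MLXIPL, the carbohydrate-responsive transcription factor, INSIG1, which holds the sterol regulatory proteins in the endoplasmic reticulum, and THRSP, a thyroid hormone responsive gene of lipogenic tissue.

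Of the 6 classes, desaturation and elongation differed most in number between the cell lines, with 1 of 12 genes (8.33%) listed in HepG2, 5 of 12 (41.7%) in Huh7 and 0 in both. Over all genes the shares were 21.6%, 19.7% and 10.3%. With so few genes, 0 in both is not read as a lack of overlap. Huh7 alone listed ELOVL2 (ENSG00000197977), ELOVL3 (ENSG00000119915), ELOVL4 (ENSG00000118402) and ELOVL6 (ENSG00000170522), elongases of the endoplasmic reticulum that catalyse the condensing step of chain lengthening. ELOVL2 is best known for polyunsaturated chains, ELOVL3 and ELOVL6 for saturated and monounsaturated chains, and ELOVL4 for very long chains. The remaining elongases ELOVL1, ELOVL5 and ELOVL7 were listed in neither, so the family stood at 0 of 7 in HepG2 and 4 of 7 (57.1%) in Huh7.

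The desaturases divided differently. HepG2 alone listed SCD5 (ENSG00000145284), a stearoyl-CoA desaturase that puts the first double bond into saturated chains, whereas its paralog SCD, the main form of liver, was listed in neither. Huh7 alone listed FADS3 (ENSG00000221968), a front-end desaturase family member. FADS1 and FADS2, the delta desaturases of polyunsaturated fatty acid synthesis, were listed in neither, although the 3 FADS genes follow one another on chromosome 11 with 0 protein-coding genes between them. Of 7 other genes of this class 1 (14.3%) was listed in each line, and it was HACD4, a dehydratase of the elongation cycle, in both.

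The GO terms and KEGG pathways restate the same listing, grouped by annotation, and are no separate evidence for it. Under fatty acid elongation, 1 of 13 genes (7.69%) was listed in HepG2, which was HACD4, and 5 of 13 (38.5%) in Huh7, which were HACD4 and the 4 ELOVL genes. The term fatty acid elongase activity held 4 listed genes of 7 (57.1%) in Huh7, all ELOVL, and was not among the terms of the HepG2 table. Unsaturated fatty acid biosynthetic process held 19 of 68 genes (27.9%) in HepG2 and 22 of 68 (32.4%) in Huh7, with 11 of these genes in common, DECR2 among them. SCD5 was the single member under that term in HepG2, and FADS3 with the 4 elongases were the 5 members in Huh7. Several other genes under that term belong to eicosanoid synthesis, among them PTGS2, ALOX12B and ALOX5AP, which were listed in both lines. None of the members under that term was listed in both. In KEGG the pathway of fatty acid elongation held 3 listed genes of 23 (13%) in HepG2, which were HADH and the thioesterases PPT1 and PPT2. In Huh7 it held 4 of 23 (17.4%), which were the 4 ELOVL genes, with 0 genes in common. Both shares lay below those of all KEGG gene entries, summed over pathways, at 26.3% in HepG2 and 25.8% in Huh7.

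Because the calls within the elongase family differed, the promoters of all 7 ELOVL genes are shown, each as the 250 bases before the transcript start from RefSeq (GRCh38.p14), read 5′ to 3′ in the direction of the gene. The promoter table held 42 of the 50 fatty acid genes. Capitals mark matches, on either strand, to any of 5 short motifs: the CCAAT box CCAAT, the E-box CACGTG, the nuclear receptor half-site AGGTCA, the TATA box TATAAA and the short sterol response element TCACNCCAC. The 4 listed in Huh7 come first, followed by the 3 that were not listed.
ELOVL2, chr6:11044306-11044555, minus strand: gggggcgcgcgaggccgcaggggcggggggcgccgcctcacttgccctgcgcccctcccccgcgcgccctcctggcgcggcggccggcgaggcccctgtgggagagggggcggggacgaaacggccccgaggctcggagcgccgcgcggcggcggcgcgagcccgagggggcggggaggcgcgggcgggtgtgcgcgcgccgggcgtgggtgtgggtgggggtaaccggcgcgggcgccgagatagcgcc
ELOVL3, chr10:102226049-102226298, plus strand: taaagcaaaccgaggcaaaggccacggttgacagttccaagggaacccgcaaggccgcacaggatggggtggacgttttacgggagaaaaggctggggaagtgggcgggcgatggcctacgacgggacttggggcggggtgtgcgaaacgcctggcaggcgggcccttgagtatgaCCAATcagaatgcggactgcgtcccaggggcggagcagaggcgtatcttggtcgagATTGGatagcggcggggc
ELOVL4, chr6:79947554-79947803, minus strand: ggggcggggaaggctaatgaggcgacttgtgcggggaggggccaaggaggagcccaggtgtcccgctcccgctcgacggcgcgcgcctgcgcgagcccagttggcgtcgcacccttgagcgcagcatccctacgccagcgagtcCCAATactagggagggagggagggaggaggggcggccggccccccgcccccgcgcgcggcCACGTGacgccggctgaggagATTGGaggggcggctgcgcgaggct
ELOVL6, chr4:110198616-110198865, minus strand: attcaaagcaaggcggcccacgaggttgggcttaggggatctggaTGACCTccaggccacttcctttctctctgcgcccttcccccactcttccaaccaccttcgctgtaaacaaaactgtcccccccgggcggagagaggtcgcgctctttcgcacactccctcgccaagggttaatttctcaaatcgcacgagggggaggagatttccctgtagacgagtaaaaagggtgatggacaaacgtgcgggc
ELOVL1, chr1:43368012-43368261, minus strand: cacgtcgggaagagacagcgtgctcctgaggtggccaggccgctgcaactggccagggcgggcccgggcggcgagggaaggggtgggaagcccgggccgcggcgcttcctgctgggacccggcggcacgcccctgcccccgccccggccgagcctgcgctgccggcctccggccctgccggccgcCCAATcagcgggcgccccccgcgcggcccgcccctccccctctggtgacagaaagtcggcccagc
ELOVL5, chr6:53348951-53349200, minus strand: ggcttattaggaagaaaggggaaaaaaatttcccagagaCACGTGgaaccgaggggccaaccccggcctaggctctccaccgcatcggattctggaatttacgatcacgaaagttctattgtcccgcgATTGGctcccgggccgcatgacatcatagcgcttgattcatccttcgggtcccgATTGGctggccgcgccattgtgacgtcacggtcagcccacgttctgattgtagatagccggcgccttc
ELOVL7, chr5:60844270-60844519, minus strand: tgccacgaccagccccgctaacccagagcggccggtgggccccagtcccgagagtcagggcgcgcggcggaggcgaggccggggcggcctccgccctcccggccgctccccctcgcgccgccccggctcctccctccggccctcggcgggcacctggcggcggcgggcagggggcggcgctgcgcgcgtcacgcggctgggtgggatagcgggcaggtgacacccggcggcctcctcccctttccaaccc

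CCAAT matches stood before ELOVL3 and ELOVL4 among the listed elongases and before ELOVL1 and ELOVL5 among the others. Of 35116 RefSeq promoters of the same length, 32% held this motif. The E-box, found in 6.34% of promoters, stood before ELOVL4 at base 46 and before ELOVL5 at base 211 upstream of the start. ELOVL6 held 1 nuclear receptor half-site, on the opposite strand at base 205, a motif of 12.1% of promoters. ELOVL2 and ELOVL7 held 0 matches, and none of the 7 held the sterol response element (0.883% of promoters) or the TATA box (10.7%). No motif separated the 4 listed elongases from the other 3. These letters are a description of the sequence and not of binding. The GC content was 84.8%, 62.8%, 74.4% and 57.2% before ELOVL2, ELOVL3, ELOVL4 and ELOVL6, and 79.6%, 56% and 80.8% before ELOVL1, ELOVL5 and ELOVL7, so the listed and unlisted elongases overlapped in base composition.

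Activation genes were listed more often than all genes in both lines, at 3 of 8 (37.5%) in HepG2 and 6 of 8 (75%) in Huh7, and the 3 of HepG2 were all among the 6 of Huh7. The shared genes were ACSL5 (ENSG00000197142), a long-chain acyl-CoA synthetase, and ACSM3 (ENSG00000005187) and ACSM5 (ENSG00000183549), medium-chain acyl-CoA synthetases of mitochondria. Huh7 alone added ACSL4 (ENSG00000068366), which prefers arachidonate and other polyunsaturated chains, ACSL6 (ENSG00000164398), a long-chain enzyme best known in brain, and ACSM1 (ENSG00000166743), another medium-chain enzyme. ACSL1, the main long-chain synthetase of liver, and ACSL3, which acts at nascent lipid droplets, were listed in neither.

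The medium-chain family was the more completely listed of the 2 synthetase families. All 3 ACSM members were listed in Huh7 and 2 of 3 in HepG2, against 3 of 5 and 1 of 5 for ACSL. With the 4 family genes outside the set, 6 of 7 ACSM genes were listed in Huh7 and 3 of 7 in HepG2, and each of the 7 was listed in at least 1 line. Of those 4, ACSM2A, ACSM2B and ACSM6 were listed in Huh7 alone and ACSM4 in HepG2 alone. In the RefSeq gene order of chromosome 16 the genes ACSM5, ACSM2A, ACSM2B, ACSM1 and ACSM3 follow one another with 0 protein-coding genes between them. All 5 genes of this run were listed in Huh7, and its outer genes ACSM5 and ACSM3 also in HepG2. ACSM2A and ACSM2B are near-identical copies, so reads may have been divided between them and their calls are uncertain.

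In KEGG the listed ACSM genes stand under butanoate metabolism, apart from ACSM6, which was under 0 pathways. Butanoate metabolism held 10 listed genes of 26 (38.5%) in HepG2 and 11 of 26 (42.3%) in Huh7. The share of all KEGG gene entries, summed over pathways, was 26.3% in HepG2 (6293 of 23949) and 25.8% in Huh7 (6184 of 23967). This was the fatty acid related pathway with the highest share in both lines among the 11 examined. The members there were ACSM3 and ACSM5 in HepG2, and these with ACSM1 in Huh7. For the ACSL genes, the GO term long-chain fatty acid-CoA ligase activity held 4 of 14 genes (28.6%) in HepG2, with ACSL5 the 1 member, and 5 of 14 (35.7%) in Huh7, with ACSL4, ACSL5 and ACSL6. The other genes of that term were ACSBG2, SLC27A2 and SLC27A6 in HepG2, and SLC27A1 and SLC27A2 in Huh7. Fatty-acyl-CoA biosynthetic process held 7 of 37 genes (18.9%) in Huh7, and all 7 were members, the 3 ACSL and the 4 ELOVL genes. In HepG2 it held 5 of 37 (13.5%), of which ACSL5 and SCD5 were members. Both shares of this term lay below those of all genes, 21.6% in HepG2 and 19.7% in Huh7.

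Among 26 other genes of activation, 6 (23.1%) were listed in HepG2, 8 (30.8%) in Huh7 and 2 (7.69%) in both. Over all genes the shares were 21.6%, 19.7% and 10.3%. The high shares of the 8 chosen genes thus did not extend to these others in HepG2, and did so less in Huh7. The shared genes were SLC27A2, a very long-chain acyl-CoA synthetase that also takes part in uptake, and ACOT11, a thioesterase that reverses activation.

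Binding and uptake gave 1 of 6 genes (16.7%) in each line, near the share of all genes, and the genes were different. HepG2 listed FABP4 (ENSG00000170323), the fatty acid binding protein of adipocytes and macrophages, and Huh7 listed FABP1 (ENSG00000163586), the binding protein of liver. FABP2 of intestine, FABP3 of heart and muscle, FABP5 of epidermis and CD36, a fatty acid translocase of the cell surface, were listed in neither. Of 12 other genes of this class, 4 (33.3%) were listed in HepG2, 2 (16.7%) in Huh7 and 1 (8.33%), FABP12, in both. The shares over all genes were 21.6%, 19.7% and 10.3%. The GO term fatty acid binding held 12 of 40 genes (30%) in each line, with 7 in common. ALB and HNF4A were among these 7, while FABP4 in HepG2, and FABP1 and ACOX2 in Huh7, were the members. Fatty acid transport held 29 of 99 genes (29.3%) in each line, 14 of them shared, with FABP4 and PLIN2 as members in HepG2 and ACSL4, FABP1 and PLIN2 in Huh7. Equal counts under these terms came from partly different genes, as did the 2 lists as wholes. Over all listed genes, the shared genes were 47.7% of the HepG2 list and 52.2% of the Huh7 list.

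Oxidation was the class of most members and few calls, at 1 of 15 (6.67%) in HepG2 and 2 of 15 (13.3%) in Huh7, both below the share of all genes. Both lines listed EHHADH (ENSG00000113790), the bifunctional enzyme of peroxisomal beta-oxidation. Huh7 alone listed ACOX2 (ENSG00000168306), the peroxisomal oxidase of branched chains and bile acid intermediates. Both enzymes belong to the peroxisome. CPT1A, CPT1B and CPT2, the carnitine palmitoyltransferases of mitochondrial entry, and CPT1C, their relative of neurons, were listed in neither. Nor were the acyl-CoA dehydrogenases ACADL, ACADM, ACADS and ACADVL, the trifunctional protein subunits HADHA and HADHB, the thiolases ACAA1 of peroxisomes and ACAA2 of mitochondria, or ACOX3, a further peroxisomal oxidase. Among these 15 chosen genes the mitochondrial enzymes were thus all unlisted, which did not hold for the other oxidation genes.

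Other genes of oxidation, 26 in number, were listed near the background, with 5 (19.2%) in each line. DECR2, a peroxisomal reductase for unsaturated chains, and CROT, the peroxisomal carnitine octanoyltransferase, were the 2 listed in both. Mitochondrial enzymes were listed in 1 line each: HADH, the dehydrogenase of short chains, in HepG2, and ACADSB, a dehydrogenase of short branched chains, and ETFB, an electron transfer flavoprotein subunit, in Huh7. Under fatty acid beta-oxidation, 16 of 74 genes (21.6%) were listed in each line, 8 of them shared. The members there were EHHADH and PLIN5 in HepG2, and ACOX2, EHHADH, FABP1 and PLIN5 in Huh7. Acyl-CoA dehydrogenase activity held 1 of 12 genes (8.33%) in Huh7, which was ACADSB, and was not among the terms of the HepG2 table. The mitochondrion term held 323 of 1734 genes (18.6%) in HepG2 and 288 of 1734 (16.6%) in Huh7, and the peroxisome term 33 of 143 (23.1%) and 34 of 143 (23.8%).

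Lipid storage, here a class of perilipins only, was listed throughout, with 4 of 4 genes in HepG2 and the same 4 in Huh7. They were PLIN1 (ENSG00000166819), the droplet coat protein of adipocytes that gates lipolysis, PLIN2 (ENSG00000147872), the ubiquitous coat protein and a common marker of lipid droplets, PLIN4 (ENSG00000167676), which coats small new droplets, and PLIN5 (ENSG00000214456), which ties droplets to mitochondria in oxidative tissue. PLIN3, the remaining perilipin and not one of the 50, was listed in neither line, so the whole family stood at 4 of 5 in both. Because the 50 were chosen with earlier results known, the full class does not speak for storage genes at large. PLIN4 and PLIN5 are neighbours on chromosome 19 with 0 protein-coding genes between them. The number of GO terms that held each gene ran from 16 for PLIN4 over 30 for PLIN1 and 53 for PLIN2 to 171 for PLIN5. It was the same in both lines for each gene, so it describes annotation and not the strength of the call.

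The perilipin promoters are shown because this was the 1 family of members with every gene listed in both lines; this set was chosen after the calls were known. Window, build, orientation and the meaning of the capitals are those given for the elongases.
PLIN1, chr15:89679368-89679617, minus strand: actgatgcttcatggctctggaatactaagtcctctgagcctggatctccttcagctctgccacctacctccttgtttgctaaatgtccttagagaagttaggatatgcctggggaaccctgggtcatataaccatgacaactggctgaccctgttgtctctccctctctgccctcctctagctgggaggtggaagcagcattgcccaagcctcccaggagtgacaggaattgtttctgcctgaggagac
PLIN2, chr9:19127493-19127742, minus strand: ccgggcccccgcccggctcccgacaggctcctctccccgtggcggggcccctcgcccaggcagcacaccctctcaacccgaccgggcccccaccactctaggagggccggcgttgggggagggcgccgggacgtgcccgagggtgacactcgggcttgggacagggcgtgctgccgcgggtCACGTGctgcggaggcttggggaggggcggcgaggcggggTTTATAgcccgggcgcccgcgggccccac
PLIN4, chr19:4518487-4518736, minus strand: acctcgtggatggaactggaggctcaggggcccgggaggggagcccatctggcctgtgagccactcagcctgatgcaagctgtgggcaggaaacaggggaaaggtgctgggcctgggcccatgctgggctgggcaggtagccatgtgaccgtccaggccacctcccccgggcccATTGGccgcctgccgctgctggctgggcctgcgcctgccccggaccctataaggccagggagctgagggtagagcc
PLIN5, chr19:4535225-4535474, minus strand: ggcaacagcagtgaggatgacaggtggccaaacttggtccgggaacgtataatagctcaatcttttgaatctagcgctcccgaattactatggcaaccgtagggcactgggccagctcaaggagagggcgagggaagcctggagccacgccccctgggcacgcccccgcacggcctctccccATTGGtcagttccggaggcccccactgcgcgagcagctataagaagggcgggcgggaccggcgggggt

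PLIN4 and PLIN5 each held a CCAAT match on the opposite strand, at bases 76 and 68 before the start. PLIN2 held an E-box at base 69 and a TATA match on the opposite strand at base 29. PLIN1 held 0 matches. The family therefore shared none of the 5 motifs across its 4 promoters, whose GC content ran from 52.4% (PLIN1) over 63.2% (PLIN5) and 69.2% (PLIN4) to 78% (PLIN2).

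Around the perilipins, 8 of 21 other genes of lipid storage (38.1%) were listed in HepG2 and 5 of 21 (23.8%) in Huh7, with 3 (14.3%) in both. Over all genes the shares were 21.6%, 19.7% and 10.3%, so those in Huh7 and in both lay near the background. The 3 in both were PNPLA2, the triglyceride lipase of the droplet surface, ABHD5, its coactivator, and DGAT2, which makes triglyceride. HepG2 alone listed LIPE, the hormone-sensitive lipase, CIDEB and CIDEC, which act in droplet growth, DGAT1, the other diacylglycerol acyltransferase, and LPIN2, a phosphatidate phosphatase. Huh7 alone listed GPAM, which starts glycerolipid synthesis in mitochondria, and G0S2, an inhibitor of PNPLA2. By role, the storage genes listed in both lines were coat proteins, a lipase with its coactivator, and a synthetic enzyme. These roles describe few genes and are no result about storage at large. Lipid particle, the GO term of the droplet, held 25 of 79 genes (31.6%) in HepG2 and 17 of 79 (21.5%) in Huh7, 12 of them shared. The 4 perilipins were among the 12, while FABP4 was under that term in HepG2 and ACSL4 in Huh7.

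**Figure D2:**
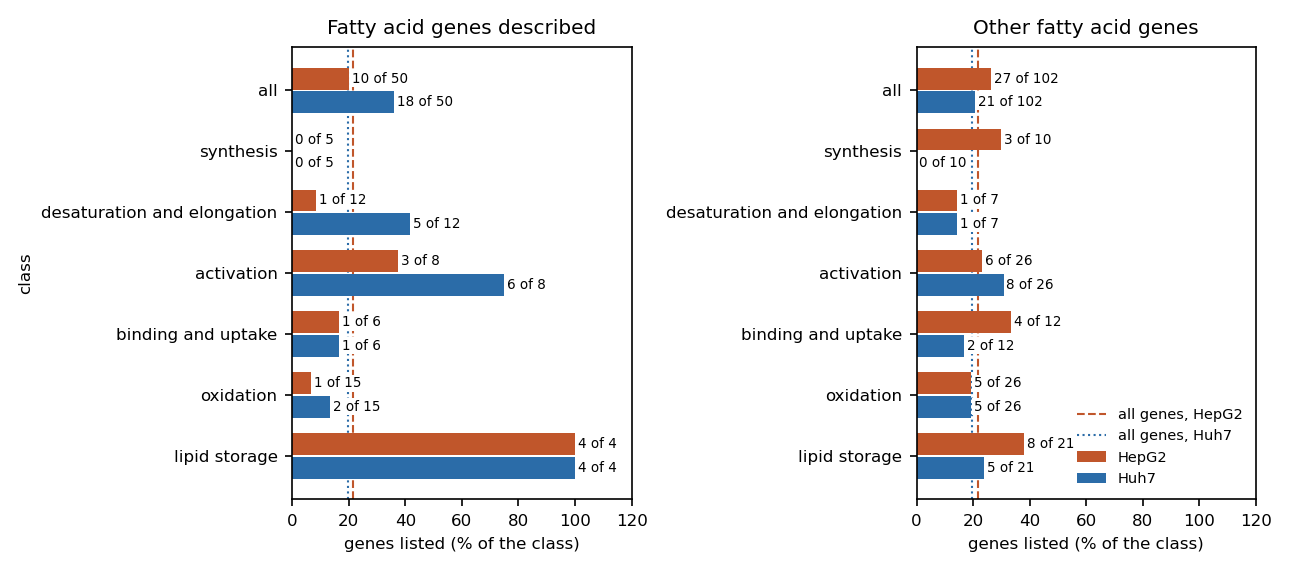
The horizontal axis is the percentage of the genes of each class that were listed in HepG2 (orange bars) and Huh7 (blue bars), for the 50 genes (left) and for 102 other fatty acid genes (right), with dashed and dotted lines at the shares of all genes, 21.6% and 19.7%. Lipid storage reaches 4 of 4 in both lines on the left but 8 of 21 and 5 of 21 on the right, and activation in Huh7 reaches 6 of 8 on the left and 8 of 26 on the right.

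The 102 other fatty acid genes ordered the lines the other way round. HepG2 listed 27 (26.5%) and Huh7 21 (20.6%), with 9 in both (8.82%), 18 in HepG2 alone, 12 in Huh7 alone and 63 in neither. The Huh7 share of these genes thus lay near the background of 19.7%, while that of the 50 was 36%. The 9 shared genes were HACD4, SLC27A2, ACOT11, FABP12, DECR2, CROT, DGAT2, PNPLA2 and ABHD5. They were 33.3% of the HepG2 list and 42.9% of the Huh7 list. PPARA, the nuclear receptor that drives fatty acid oxidation in liver, was listed in HepG2 alone and PPARD, its relative, in Huh7 alone, while PPARG and its coactivator PPARGC1A were listed in neither.

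Broad fatty acid terms differed little between the lines in share. Fatty acid metabolic process held 96 of 400 genes (24%) in HepG2 and 99 of 400 (24.8%) in Huh7, with 44 shared. Members made up 6 of the 96 and 15 of the 99. Fatty acid biosynthetic process held 43 of 180 (23.9%) and 45 of 180 (25%), with 19 shared, and members were 3 of the 43 and 8 of the 45. Of the 3 in HepG2, ACSM3 and ACSM5 were also among the 8 of Huh7, and SCD5 was not.

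Regulation and storage terms had their higher shares in HepG2. Regulation of fatty acid metabolic process held 28 of 85 genes (32.9%) in HepG2 and 16 of 85 (18.8%) in Huh7, with PLIN5 a member in both and FABP1 in Huh7. The term lipid storage held 26 of 75 (34.7%) and 18 of 75 (24%), with PLIN2 and PLIN5 in both. Triglyceride metabolic process went the other way in share, at 31 of 106 (29.2%) in HepG2 and 37 of 106 (34.9%) in Huh7. Its members were FABP4 and PLIN5 in HepG2, and ACSL4, FABP1 and PLIN5 in Huh7.

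**Figure D3:**
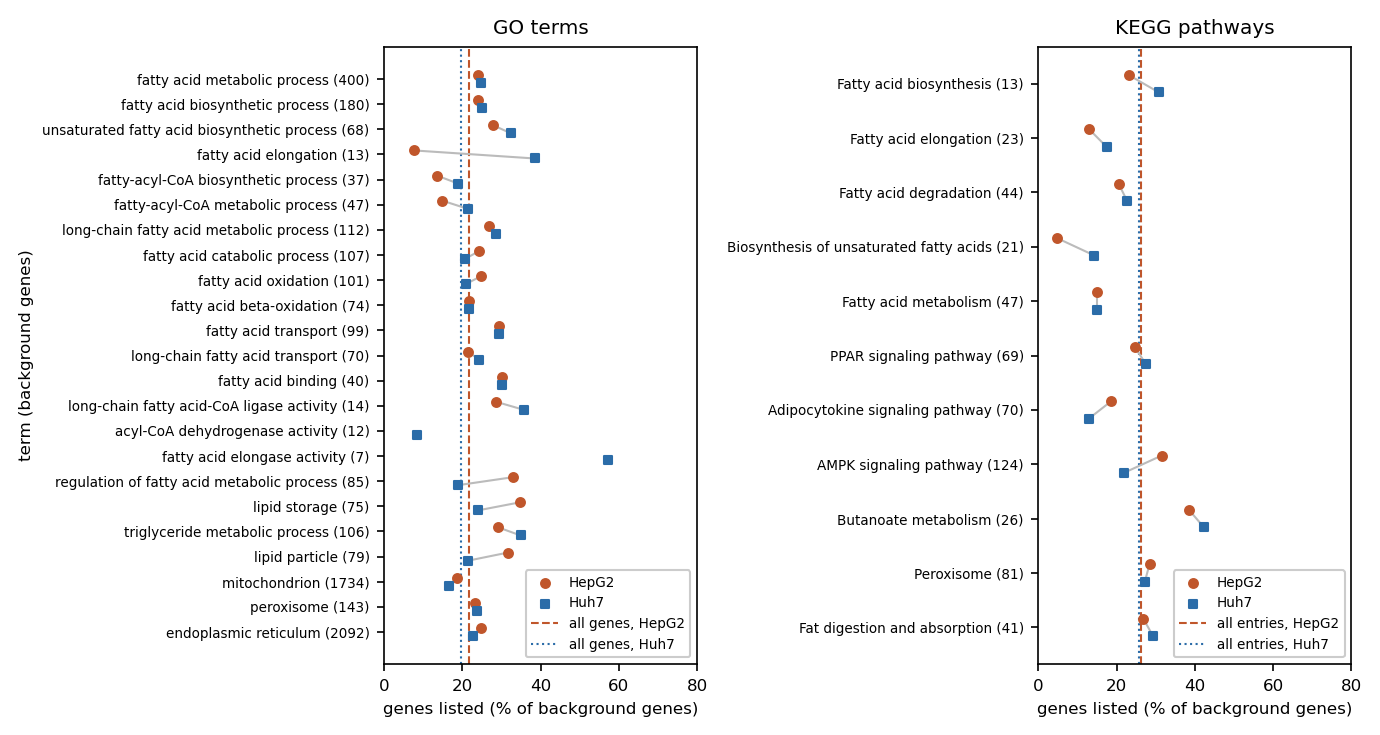
The horizontal axis is the percentage of the background genes of each GO term (left) or KEGG pathway (right) that were listed in HepG2 (circles) and Huh7 (squares), with the number of background genes in brackets beside each name and lines at the share of all genes or of all pathway entries. The symbols lie furthest apart for fatty acid elongation (7.69% in HepG2, 38.5% in Huh7), while fatty acid beta-oxidation (21.6%) and fatty acid binding (30%) have the same share in both lines.

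KEGG placed 5 of the 10 HepG2 members (50%) and 12 of the 18 Huh7 members (66.7%) in at least 1 pathway, against 35% of all genes listed in HepG2 (1676 of 4783) and 37.2% in Huh7 (1624 of 4369). EHHADH and the 4 perilipins, listed by GO in both lines, and FADS3, listed in Huh7, were under 0 KEGG pathways as deposited. ALB, listed by GO, was in none either. Why these genes were missing from the pathways was not tested, and the shared part of the result, 8 members by GO, fell to 3 by KEGG: ACSL5, ACSM3 and ACSM5. These were 37.5% of the 8, and the share over all genes listed in both lines was also 37.5% (855 of 2281). ACSL5 stood in 7 pathways in each line, and ACSL4 and ACSL6 in the same number in Huh7, among them fatty acid degradation, peroxisome and PPAR signaling. SCD5 stood in 4 pathways of HepG2, among them AMPK signaling, where it was the 1 member of 39 listed genes of 124 (31.5%). In Huh7, 27 of the 124 (21.8%) were listed and 0 were members.

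**Figure D4:**
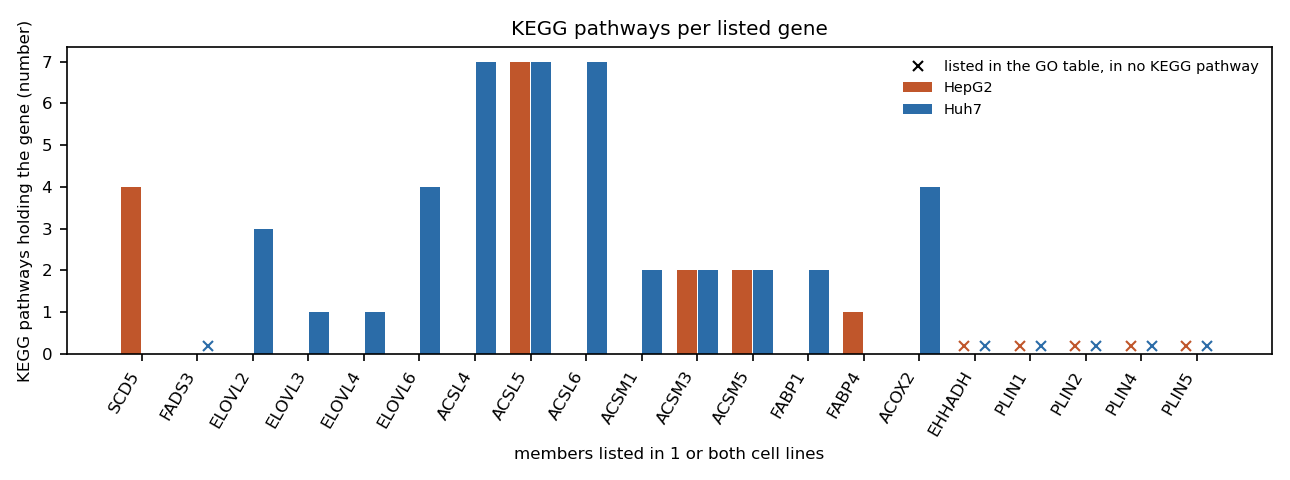
The vertical axis is the number of KEGG pathways that held each of the 20 fatty acid genes listed in 1 or both cell lines (horizontal axis), in HepG2 (orange) and Huh7 (blue), and a cross marks a gene listed by GO but in no KEGG pathway. The ACSL genes stand highest with 7 pathways each, and crosses stand at FADS3, EHHADH and the 4 perilipins.

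PPAR signaling held 17 of 69 genes (24.6%) in HepG2 and 19 of 69 (27.5%) in Huh7, with 7 shared. ACSL5 was the member in both, with FABP4 and SCD5 added in HepG2, and ACOX2, ACSL4, ACSL6 and FABP1 in Huh7. The pathway fatty acid metabolism held 7 of 47 genes (14.9%) in each line, below the share of all entries, and 2 of them were shared. Members were 2 of the 7 in HepG2 (ACSL5 and SCD5) and 5 of the 7 in Huh7 (ACSL4, ACSL5, ACSL6, ELOVL2 and ELOVL6). Fatty acid degradation, at 9 of 44 (20.5%) and 10 of 44 (22.7%), held the ACSL genes as its members, and biosynthesis of unsaturated fatty acids, at 1 of 21 (4.76%) and 3 of 21 (14.3%), held SCD5 in HepG2 and ELOVL2 and ELOVL6 in Huh7.

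Where the products work was read from GO for the 20 members listed in either line. The endoplasmic reticulum held 11 of them, the mitochondrion 7, the lipid particle 6 and the peroxisome 5, and a gene can stand under several. Of the 4 HepG2 members at the endoplasmic reticulum, ACSL5, PLIN1 and PLIN2 were shared with Huh7, which had 10 there. Over all genes, 517 of 2092 (24.7%) of that term were listed in HepG2 and 472 (22.6%) in Huh7.

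The longest transcript had a median of 2899 bases for the 20 listed members, 3059 for the 30 unlisted and 2933 for 19684 protein-coding genes (GENCODE release 29). Lengths ran from 941 to 6539 bases among the listed and from 725 to 9961 among the unlisted, so they overlapped. The part of length in the calls was not tested. For 16 of the 20, no stretch of 75 bases occurred in a transcript of another gene. The exceptions were ACSL6, at 27.4% of its stretches, PLIN5, at 16.6%, ACSM5, at 8.96%, and ELOVL6, at 0.0157%. Gene models on the same strand overlapped ACSL6 (AC026398.1, 15.4% of its exon bases) and PLIN5 (AC011498.4), whereas ACSM5 shared sequence with its pseudogene ACSM5P1. Calls of ACSL6, PLIN5 and ACSM5 are thus uncertain where reads were divided between these genes and those that share their sequence. Of the unlisted genes, CPT1B shared 94.1% of its stretches with the readthrough gene CHKB-CPT1B, FABP5 shared 28.2%, largely with its pseudogenes, and ACAA2 shared 13.4%, while CPT1A, HADHA, HADHB and SCD shared under 1%. Exon overlap with a gene on the opposite strand was largest, among the listed members, for ACSM3 with ERI2, at 11.1% of its exon bases. It was 8.2% for ACSM5 with AC137056.1, 5.72% for EHHADH with EHHADH-AS1 and 5.29% for ACSL5 with AL157786.1. The remaining such overlaps were smaller. The library kit marked strand, but whether the counting used it is not given in the sources used here.

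Markers of cell identity could be read only as listed or not. Of 10 hepatocyte markers, 3 (ALB, AFP and HNF4A) were listed in HepG2 and 8 in Huh7, so defining genes of the labelled cell type were themselves called in both comparisons. Of 5 adipocyte markers, ADIPOQ, CIDEC and LIPE were listed in HepG2 and 0 in Huh7, and CIDEC and LIPE also belong to the other fatty acid genes. Fibroblast markers gave 2 of 4 and 1 of 4, endothelial markers 3 of 3 and leukocyte markers 3 of 4 in each line. Over all genes, 21.6% were listed in HepG2 and 19.7% in Huh7. Levels of the markers are not in the tables, so their part in the calls of FABP4, PLIN1 and the other members was not tested. Each library came from 1 cultured cell line, so these listings do not show that other cell types were present. In bulk RNA, a change in the mix of cell states and a change within each cell cannot be told apart.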

How the data were processed

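RNA was sequenced from 4 libraries, 1 per group, made from ribosomal RNA-depleted total RNA with a strand-marking kit. Per the labels and the paper's methods, the authors mapped reads, expressed levels as FPKM and took an mRNA as differentially expressed where its adjusted p-value was under 0.05. The submitters' processing notes name Bowtie2 2.2.8, HISAT2, StringTie 1.3.1 and Cuffdiff 2.1.1, with no roles. The methods name Cuffdiff for the calls, whereas the paper's results name a different program. GO terms were tested by the authors with GOseq, which adjusts for gene length, and pathways with KOBAS. Genome build and annotation are not given in the sources used here.

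The 4 deposited tables hold numbers of genes (listed and background) and gene identifiers for each GO term and KEGG pathway, and the authors' p-values and corrected p-values, which were not used. Levels, read counts and directions of change are not in the tables used here, so depth and its precision could not be stated. Long non-coding and circular RNAs were not analysed here.

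Each gene list was rebuilt as the union of identifiers over all GO terms (14390 in HepG2, 13760 in Huh7) with Python 3.11.15 and pandas 2.3.3, and the steps were tested on simulated data. Groups came from the labels. Counts and shares were set beside the share of all 22148 background genes, with no test. The 50 genes, the 102 other fatty acid genes, the markers and the terms were chosen with earlier results of these data known. Every member is named. Of the other fatty acid genes, those listed in both lines were named by rule, and the remaining ones for their role after the calls were seen. Transcripts came from GENCODE release 29, and gene order and promoters from RefSeq (GRCh38.p14), matched by identifier or symbol. Promoters of FABP4, FASN, ACSM3, EHHADH, FABP5, ACAA1, ACOX2 and CPT1B were not used here. Alternatives changed the table, the kind or size of GO term, the symbols accepted and the background.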

Additional observations from a re-analysis of the deposited data

How the results depend on the processing

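Counts of listed genes depended on the source table. With KEGG pathways in place of GO terms, 5 members were listed in HepG2 in place of 10, 3 in both lines in place of 8, and 16 of the other fatty acid genes in HepG2 in place of 27. Huh7 kept 12 of 18 members. By class, KEGG gave 0 in place of 4 lipid storage genes in each line, and 0 and 1 oxidation genes in place of 1 and 2. EHHADH and the perilipins were under no pathway as deposited, and why they were missing was not tested. With molecular function terms alone, 2 lipid storage genes were listed in each line. Both GO and KEGG together, biological process or cellular component terms alone, terms of 10 or more or of 500 or fewer background genes, and older symbols kept the total counts of members within 1.5 times. Over protein-coding genes alone, 23.9% of genes were listed in HepG2 and 21.9% in Huh7.

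No paired analysis was possible because the tables hold no values per sample. With 1 library per group, leaving out a replicate was not run. The share of a term counted over members alone is smaller by construction. Direction, size and error of any change, and the expression of unlisted genes, are beyond these tables.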
